A study of Xenopus laevis with 6 samples.

Results

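The peroxiredoxins, a family of thiol enzymes that break down hydrogen peroxide, were followed in animal caps of Xenopus laevis at gastrula stage 10.5. Their probe sets were chosen by gene symbol, as those whose annotated symbol begins with prdx and a digit. This gave 10 of the 15491 probe sets tested, for 9 genes. A reference annotation lists 11 peroxiredoxin genes for this species, and prdx4.L and prdx5.S had no probe set named for them here. The gene prdx2.L was singled out because its measured values, Mixer against uninjected and Sox17beta against uninjected, were higher in both injected groups. Those comparisons of prdx2.L are therefore given as a description, with no test.

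The 6 Affymetrix arrays held total RNA of 2 samples each of caps expressing Mixer, caps expressing Sox17beta and uninjected caps. Animal caps are explants of the ectoderm at the top of the embryo, of mixed sex here. Mixer, a homeodomain protein, and Sox17beta, an HMG-box protein, are transcription factors known as regulators of endoderm formation. The injected amounts, the clutches and whether the 2 samples of a group came from separate embryos are not stated in the labels, so p-values reflect the spread between the samples at hand, part or all of which could be technical.

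Peroxiredoxins carry a cysteine that is oxidised by peroxide and is then restored, usually by thioredoxin. Typical 2-Cys members (prdx1 to prdx4 in vertebrates) form a disulfide between the subunits of a dimer, prdx5 forms one within a subunit, and prdx6 works with a single catalytic cysteine. They differ in place: in mammals prdx1, prdx2 and prdx6 are mainly cytosolic, prdx3 is mitochondrial, prdx4 lies in the endoplasmic reticulum or is secreted, and prdx5 is found in several compartments. They are known both as protection against oxidants and as modulators of peroxide signals, and prdx2 is known in mammals for its abundance in red blood cells. The frog genome is duplicated, and a symbol ends in .L or .S by whether its copy lies on a long or a short chromosome.

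The arrays were alike in their median, at 6.50 to 6.55 on the log2 scale, after processing that equalises array distributions. Their 44 controls for transcripts that should be absent had a highest value of 5.90 to 6.09 on 5 arrays and of 6.62 on Sox17beta replicate 1, and 48.5% to 60.7% of probe sets lay above it, with the lowest share on that same array. The mean of 18 hybridisation controls was 10.44 to 10.56 on the replicate 1 arrays and 8.89 to 9.25 on the replicate 2 arrays. The labels held for the supplied genes. The probe set of mixer.L read 14.07 and 14.06 in Mixer caps, 6.83 and 6.53 in Sox17beta caps, and 6.46 and 6.54 in uninjected caps. One probe set of sox17b.1.S read 13.11 and 13.90 in Sox17beta caps, 9.63 and 9.33 in Mixer caps, and 6.91 and 6.70 in uninjected caps. Of 16 epidermal ectoderm probe sets, 15 lay above the highest absent control on both uninjected arrays, and the one that did not was tp63.L. Of 14 endoderm probe sets, 4 did, namely mixer.L, a2m.S, foxa1.S and one of the 2 of sox17b.1.S.

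The cytosolic peroxiredoxin gene prdx2.L had the highest levels in Sox17beta caps, intermediate levels in Mixer caps and the lowest in uninjected caps. Its single probe set, with an identifier ending _at (one transcript targeted), read 8.63 and 7.73 in Mixer caps, replicates 1 and 2, against 7.29 and 6.37 in uninjected caps. In Sox17beta caps it read 9.57 and 9.28. No array of one group overlapped another group, and all 6 values lay above the highest absent control of their array. With 2 arrays per group, such separation is common in a single comparison. Groups did not overlap for 22.1% of all probe sets between Mixer and uninjected caps. The share was 30.4% between Sox17beta and uninjected caps and 24.5% between Mixer and Sox17beta caps. The share with all 3 groups apart was not computed. The closest approach was between Mixer replicate 2, at 7.73, and uninjected replicate 1, at 7.29.

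The group means of prdx2.L were 8.18 ± 0.64 in Mixer caps and 6.83 ± 0.65 in uninjected caps (SD, n = 2 each), 1.35 apart in log2 units or 2.55-fold. The mean in Sox17beta caps was 9.43 ± 0.21 (SD, n = 2), which was 2.60 above uninjected caps, or 6.04-fold. Replicate 1 read above replicate 2 in every group, by 0.90 in Mixer, 0.29 in Sox17beta and 0.92 in uninjected caps. Set against the uninjected array of the same number, the Mixer difference was 1.34 in replicate 1 and 1.36 in replicate 2. The labels do not state that arrays with the same number are paired. The Sox17beta difference was 2.28 in replicate 1 and 2.91 in replicate 2. The standard error of each difference was 0.43 from limma without the replicate number and 0.17 with it as a block. Among all 15491 probe sets, 65 had a larger positive difference than prdx2.L in Mixer caps and 19 had one in Sox17beta caps. Both comparisons share the uninjected arrays. RNA was taken from whole explants, so a change in the number of cells with the transcript and a change in its amount per cell cannot be told apart.

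The direct comparison of the injected groups was not used to choose prdx2.L and was tested. The Mixer minus Sox17beta difference was -1.25 on the log2 scale, equal to a 2.37-fold higher level in Sox17beta caps, with -0.94 in replicate 1 and -1.55 in replicate 2. The difference did not pass without the replicate block (limma adjusted p = 1, unadjusted p = 0.0342) and passed with it (limma adjusted p = 0.0219). Without the block 0 of 10 peroxiredoxin probe sets were called, where 0.0581% of all probe sets were, and 1 had an unadjusted p under 0.05, where 3.97% of all did. With the block prdx2.L was the 1 member called, where 1.56% of all probe sets were called. Leaving out single arrays from the blocked fit, which left 1 array in a group, gave differences from -1.555 to -0.935. The call of prdx2.L ended in 5 of these 6 refits and held without Sox17beta replicate 1. Calls over all probe sets also became fewer in every such refit, so a lost call was not particular to prdx2.L.

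**Figure D1:**
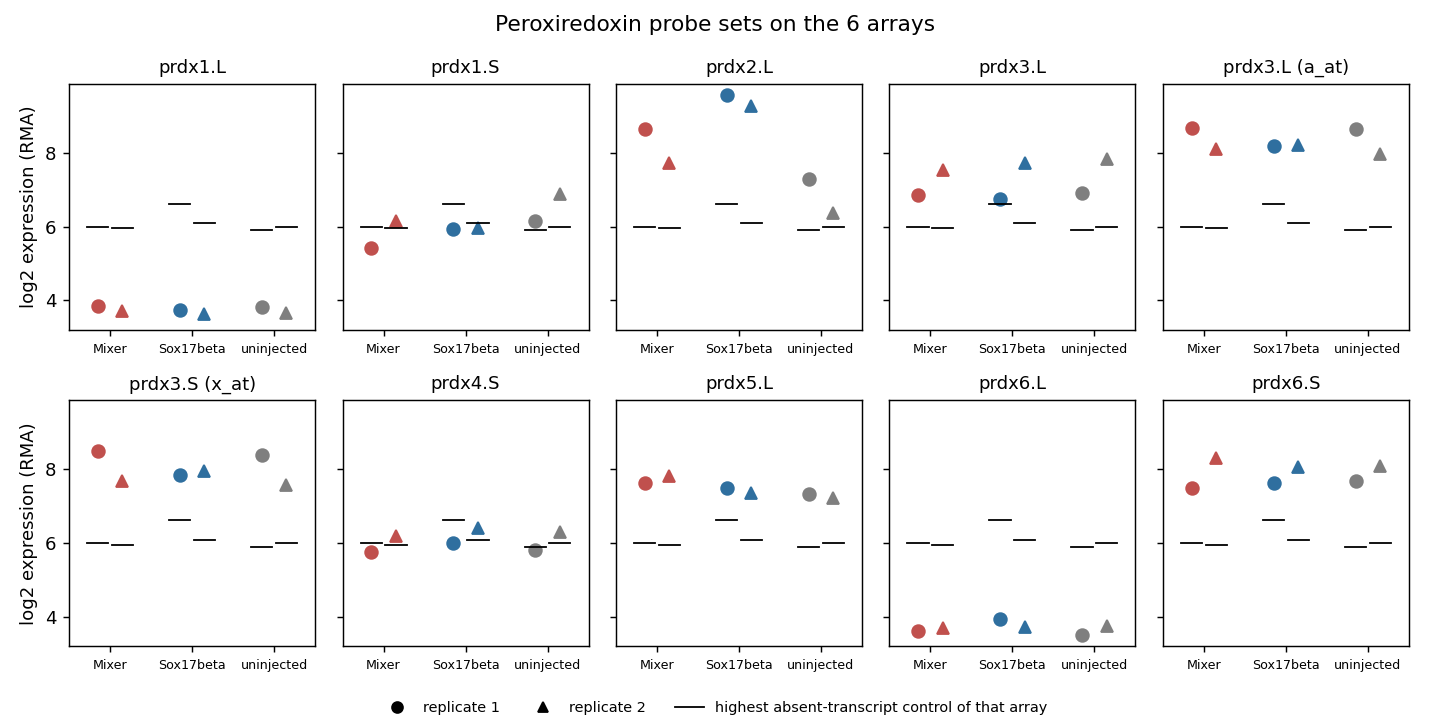
Log2 expression (vertical axis) of the 10 peroxiredoxin probe sets on the 6 arrays, with 1 panel per probe set, circles for replicate 1, triangles for replicate 2 and a short line at the highest absent control of each array. The 3 groups of prdx2.L occupy separate ranges, while prdx1.L and prdx6.L lie below the lines on every array.

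The other cytosolic typical 2-Cys gene, prdx1, was called in no comparison when all arrays were used. The probe set of prdx1.S read 5.41 and 6.16 in Mixer caps, 5.92 and 5.96 in Sox17beta caps, and 6.16 and 6.87 in uninjected caps. Only 3 of its 6 values exceeded the highest absent control, 2 of them in uninjected caps and none in Sox17beta caps, so differences of this probe set, and above all its Sox17beta difference, are uncertain. Its mean was 5.79 ± 0.53 in Mixer caps and 6.52 ± 0.50 in uninjected caps (SD, n = 2 each), a difference of -0.73 that did not pass (limma adjusted p = 1, with the block 0.14). It was -0.75 in replicate 1 and -0.71 in replicate 2. In Sox17beta caps the mean was 5.94 ± 0.03, a difference of -0.57 (limma adjusted p = 1, with the block 0.158). In the blocked fit this difference was -0.92 without Sox17beta replicate 1 and -0.23 without Sox17beta replicate 2. Each of these refits left 1 array in the Sox17beta group. The prdx1.L probe set read 3.64 to 3.85 over all arrays and was not above background on any, so no fold is given for it.

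The mitochondrial gene prdx3 was measured by 3 probe sets, all above the highest absent control on 6 of 6 arrays. One prdx3.L probe set, with an identifier ending A1_at, read 6.85 and 7.54 in Mixer caps, 6.75 and 7.71 in Sox17beta caps, and 6.90 and 7.84 in uninjected caps. The second prdx3.L probe set, ending S1_a_at (transcripts of one gene), read 8.67 and 8.11 in Mixer caps, 8.19 and 8.20 in Sox17beta caps, and 8.64 and 7.97 in uninjected caps. The groups overlapped on both. Against uninjected caps, the first probe set differed by -0.17 in Mixer caps and -0.14 in Sox17beta caps, and the second by 0.09 and -0.11 in the same order (limma adjusted p = 1 for each).

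The prdx3 probe sets disagreed on the replicate numbers. The first read higher in replicate 2 of every group, by 0.69 to 0.96, whereas the second read higher in replicate 1 of Mixer and uninjected caps, by 0.56 and 0.67. Over the 6 arrays their values had a Pearson correlation of -0.723. The prdx3.S probe set, ending S1_x_at (probes that may match other transcripts), followed the second prdx3.L probe set, with a correlation of 0.99. Those 2 share an accession in the platform annotation, so the L and S copies cannot be separated by them. It read 8.49 and 7.68 in Mixer caps, 7.85 and 7.94 in Sox17beta caps, and 8.38 and 7.57 in uninjected caps, with differences of 0.11 for Mixer and -0.08 for Sox17beta that did not pass (limma adjusted p = 1 for both, with the block 0.916 and 0.89).

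The gene prdx4, whose protein acts in the secretory pathway, was represented by prdx4.S. Its probe set read 5.75 and 6.20 in Mixer caps, 5.99 and 6.42 in Sox17beta caps, and 5.82 and 6.29 in uninjected caps. Each replicate 2 array lay above its highest absent control and each replicate 1 array below. The differences were -0.08 for Mixer and 0.15 for Sox17beta, and neither passed (limma adjusted p = 1 for both, with the block 0.851 and 0.507).

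The atypical member prdx5.L was the one other peroxiredoxin whose arrays were all higher in injected than in uninjected caps. It read 7.64 and 7.81 in Mixer caps, 7.48 and 7.37 in Sox17beta caps, and 7.32 and 7.22 in uninjected caps. Groups were apart, in either direction, for 22.1% of all probe sets in Mixer against uninjected caps. In Sox17beta against uninjected caps they were for 30.4%, and the share apart in both was not computed. The lower Sox17beta array, at 7.37, lay close to the higher uninjected array, at 7.32. The Mixer difference was 0.46 ± 0.14 (SE) or 1.37-fold, with 0.32 in replicate 1 and 0.59 in replicate 2. It did not pass (limma adjusted p = 1, with the block 0.16). The Sox17beta difference was 0.16 (limma adjusted p = 1, with the block 0.555). Unlike prdx2.L, prdx5.L had its higher mean in Mixer caps, 0.30 above Sox17beta caps (limma adjusted p = 1, with the block 0.338).

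The single-cysteine gene prdx6.S, whose product also has phospholipase activity in mammals, showed overlapping groups. It read 7.49 and 8.31 in Mixer caps, 7.62 and 8.07 in Sox17beta caps, and 7.69 and 8.08 in uninjected caps. Its differences from uninjected caps were 0.02 for Mixer and -0.04 for Sox17beta (limma adjusted p = 1 for both, with the block 0.984 and 0.912). With the block the standard error of each was 0.14. The probe set of prdx6.L read 3.50 to 3.93 over all arrays and was not above background on any.

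Apart from prdx2.L, 0 of 9 peroxiredoxin probe sets were called in Mixer against uninjected caps by limma without the block, where 0.0387% of all probe sets were called, and 0 with the block, where 1.31% of all were. At an unadjusted p under 0.05 there were 1 of 9 without the block and 2 of 9 with it, where 2.87% and 12.2% of all probe sets were. In Sox17beta against uninjected caps 0 of 9 were called by limma without the block, where 0.0194% of all were, and 0 with it, where 5.45% of all were. At an unadjusted p under 0.05 there were 0 of 9 without the block and 1 of 9 with it, where 6.26% and 18.2% of all probe sets were. The 9 differences ran from -0.73 to 0.46 in Mixer caps with a median of 0.03, and from -0.57 to 0.21 in Sox17beta caps with a median of -0.05. The medians over all probe sets were 0.03 and 0.04 in the same order. Groups did not overlap for 1 of the 9 in Mixer caps and for 2 of the 9 in Sox17beta caps, where 22.1% and 30.4% of all probe sets had groups apart. Between Mixer and Sox17beta caps this held for 3 of 10, where it held for 24.5% of all. These 3 included prdx6.L, which was not above background on any array. The 2 in Sox17beta against uninjected caps included prdx1.S, which had no Sox17beta value above the highest absent control. In each comparison the count lay less than 1 probe set from the share of all probe sets. The gene prdx2.L, whose groups did not overlap, was left out of the comparisons with uninjected caps and counted in the third.

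**Figure D2:**
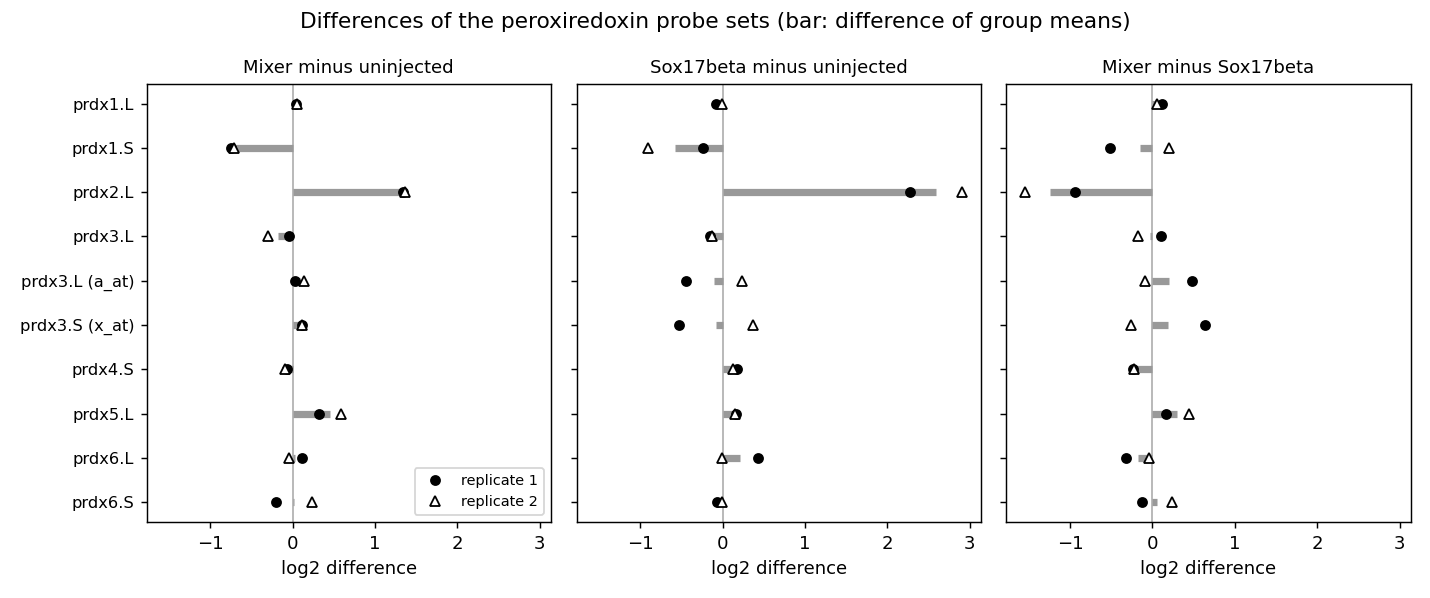
Log2 differences (horizontal axis) of the 10 peroxiredoxin probe sets in the 3 comparisons, with bars for the difference of group means, filled circles for replicate 1 and open triangles for replicate 2. For prdx2.L the Mixer points are at 1.34 and 1.36 and the Sox17beta points at 2.28 and 2.91, and the 9 other probe sets have bars between -0.73 and 0.46.

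The partners of the peroxiredoxins were described with 6 lists of redox genes, with 72 probe sets in all. In Mixer against uninjected caps 0 of 72 passed in limma without the block, and 0 had an unadjusted p under 0.05, where 2.87% of all did. With the block 0 passed, where 1.31% of all probe sets passed. With the block 10 of the 72 had an unadjusted p under 0.05, where 12.2% of all probe sets did. In Sox17beta against uninjected caps 0 passed without the block (4 at an unadjusted p under 0.05, where 6.26% of all were), and 2 rose and 3 fell with it, or 6.94%, where 5.45% of all passed. With the block 15 of the 72 had an unadjusted p under 0.05 in Sox17beta caps, where 18.2% of all probe sets did. The median difference of the 72 was -0.02 in Mixer caps and 0.02 in Sox17beta caps.

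The thioredoxin system, which hands electrons to oxidised peroxiredoxins, had 19 probe sets. In Mixer caps 0 passed with the block, and 3 had an unadjusted p under 0.05 in limma, where 12.2% of all probe sets did. In Sox17beta caps, where 5.45% of all probe sets passed with the block in either direction, 1 rose with it. This was txndc9.L, a thioredoxin-domain protein that in mammals binds the chaperonin CCT. It read 7.13 and 8.02 in Sox17beta caps against 6.36 and 6.18 in uninjected caps, a difference of 1.31 (limma adjusted p = 0.37, with the block 0.031). Its Mixer values of 6.70 and 6.61 lay between those groups, 0.39 above uninjected caps (limma adjusted p with the block 0.649). One of the 2 probe sets of the mitochondrial thioredoxin gene txn2.L read 7.69 and 7.52 in Mixer caps, 7.55 and 7.89 in Sox17beta caps, and 7.84 and 7.52 in uninjected caps, while that of the cytosolic thioredoxin txn.L read 3.29 to 3.46 and was not above background. Sestrins are stress proteins linked to the repair of overoxidised peroxiredoxins, and sesn1.L was picked after its values were seen. One of its 2 probe sets read 8.07 and 7.59 in Mixer caps, 7.96 and 6.19 in Sox17beta caps, and 6.97 and 5.69 in uninjected caps. Its Mixer difference of 1.50 passed neither without the block nor with it (limma adjusted p with the block 0.0585). The other probe set differed by 0.95 in Mixer caps (limma adjusted p with the block 0.284) and lay above the highest absent control on only 2 arrays.

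The glutathione system, the parallel route for peroxide removal, had 23 probe sets. With the block 0 passed in Mixer caps, where 1.31% of all probe sets did, and 1 fell in Sox17beta caps, where 5.45% passed. This was glrx5.S, a mitochondrial glutaredoxin of iron-sulfur cluster assembly. It read 7.39 and 7.09 in Sox17beta caps against 7.93 and 7.67 in uninjected caps, a difference of -0.56 (limma adjusted p = 0.774, with the block 0.0313), and 7.62 and 7.23 in Mixer caps. Of 11 probe sets of the Nrf2 programme, the transcriptional response to oxidants, 1 fell in Sox17beta caps with the block, against the same 5.45%. The haem oxygenase gene hmox1.L read 7.98 and 7.21 in Sox17beta caps against 8.49 and 8.10 in uninjected caps, a difference of -0.70 (limma adjusted p = 0.989, with the block 0.0291). Its Mixer values were 8.72 and 7.99, and the Mixer mean lay 0.76 above the Sox17beta mean (limma adjusted p with the block 0.0477). The probe set of the regulator nfe2l2.L was not above background on any array.

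Oxidative folding in the endoplasmic reticulum, a source of the peroxide that prdx4 uses, had 14 probe sets. In Sox17beta caps 1 rose and 1 fell with the block, where 5.45% of all probe sets passed. With the block 6 of the 14 had an unadjusted p under 0.05 in limma, where 18.2% of all probe sets did. The protein disulfide isomerase gene pdia4.L read 6.63 and 8.22 in Sox17beta caps against 5.93 and 6.82 in uninjected caps, a difference of 1.05 (limma adjusted p = 1, with the block 0.0315). These 2 groups overlapped, and their replicate 1 values lay close to the highest absent control of their arrays, at 6.62 and 5.90. In Mixer caps pdia4.L read 5.70, below the highest absent control of 5.99, and 6.44, which was 1.35 below Sox17beta caps on average (with the block 0.0293). One of the 2 probe sets of the isomerase gene p4hb.L fell by 0.83, with 6.47 and 7.54 in Sox17beta caps against 7.05 and 8.63 in uninjected caps (limma adjusted p = 1, with the block 0.0389). Those groups overlapped too, and the value of 6.47 lay below the highest absent control of its array, at 6.62. The other p4hb.L probe set differed by -0.36 and did not pass (0.188), and nor did p4hb.S at -0.10 (0.682).

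Superoxide dismutases, which make peroxide, and catalase, which removes it, were covered by 3 probe sets. In limma with the block 0 passed in either injected group. At an unadjusted p under 0.05 there were 0 in Mixer caps and 2 in Sox17beta caps, where 12.2% and 18.2% of all were. One of the 2 probe sets of cat.2.L read 7.41 and 6.78 in Mixer caps, 7.30 and 8.23 in Sox17beta caps, and 6.84 and 5.37 in uninjected caps. Its Sox17beta difference was 1.66, with 0.46 in replicate 1 and 2.86 in replicate 2 (limma adjusted p = 0.729, with the block 0.118). The other differed by -0.12 in both groups, so the probe sets disagreed. The mitochondrial superoxide dismutase gene sod2.S, picked after its values were seen, read 7.91 and 8.65 in Sox17beta caps, 7.88 and 7.27 in Mixer caps, and 7.57 and 6.31 in uninjected caps, and its Sox17beta difference of 1.34 did not pass (with the block 0.136). The oxidases that make peroxide had 2 probe sets, cyba.L and cybb.L, neither above the highest absent control on any array.

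**Figure D3:**
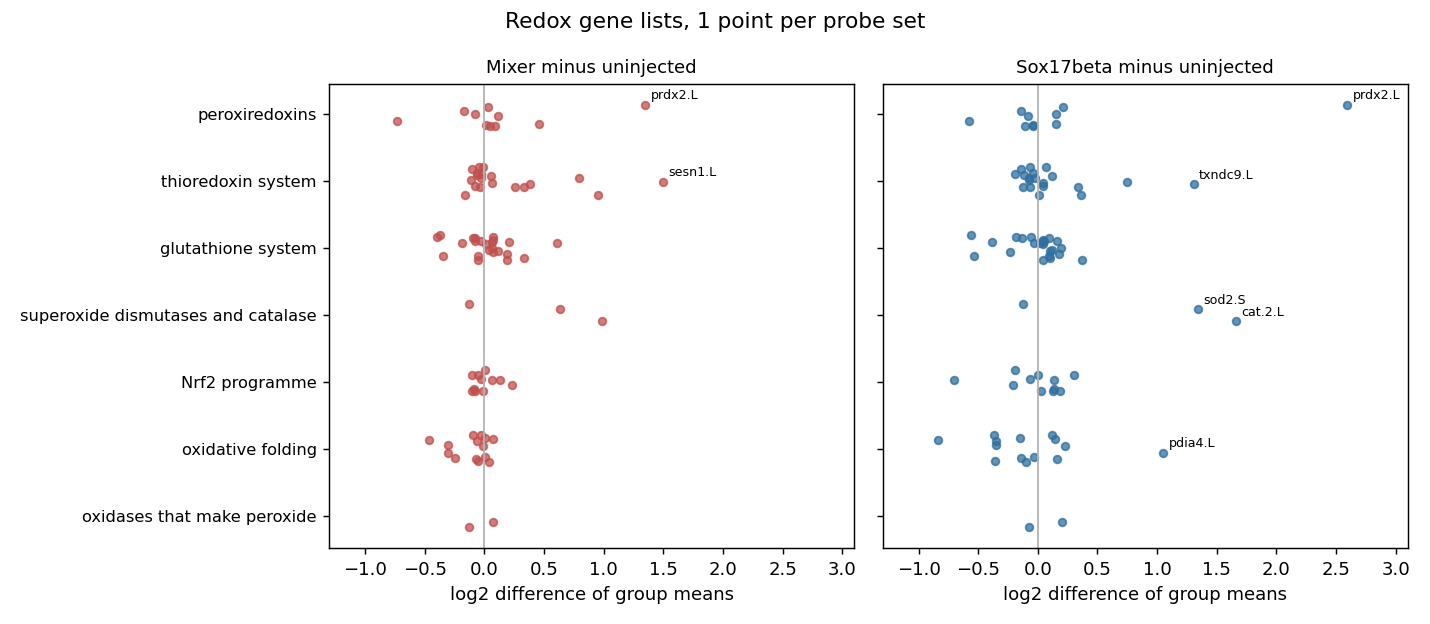
Log2 difference of group means (horizontal axis) for each probe set of the peroxiredoxins and of 6 redox lists (rows), Mixer minus uninjected on the left and Sox17beta minus uninjected on the right, with symbols printed at differences of at least 1 in size. The points farthest from 0 are sesn1.L at 1.50 and prdx2.L at 1.35 in Mixer caps, and prdx2.L at 2.60 and cat.2.L at 1.66 in Sox17beta caps.

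Some markers of cell types also differed between the groups, most of them only in the fit with the block. With the block, 1.31% of all probe sets passed in Mixer caps and 5.45% in Sox17beta caps. At an unadjusted p under 0.05 in limma the shares in Mixer caps were 2.87% without the block and 12.2% with it. In Sox17beta caps these shares were 6.26% and 18.2%. Of the 16 epidermal probe sets, 0 passed in Mixer caps in limma with or without the block (9 and 5 at an unadjusted p under 0.05, median difference -0.72). In Sox17beta caps 15 fell with the block and 0 without it (14 at an unadjusted p under 0.05, median -1.92). Their summed signal, as log2, was 13.28 to 13.83 in Mixer caps, 11.86 to 12.57 in Sox17beta caps and 13.98 to 14.38 in uninjected caps.

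Of the 14 endoderm probe sets, 9 rose in Mixer caps and 5 in Sox17beta caps with the block, and 4 and 2 without it. Their summed signal, 14.3 to 14.41 in Mixer caps, 13.96 to 14.65 in Sox17beta caps and 9.59 to 9.61 in uninjected caps, comes in the injected groups mostly from the supplied mixer and sox17b.1. Without these genes, a list chosen after the values were seen, 5 of 10 rose in Mixer caps and 3 in Sox17beta caps with the block, and 2 and 0 without it (3 in Sox17beta caps at an unadjusted p under 0.05). The sum of those 10 was 10.58 to 11.69 in Mixer caps, 10.14 to 10.41 in Sox17beta caps and 8.89 to 8.99 in uninjected caps. Unlike prdx2.L, this sum was thus highest in Mixer caps, but not every member was. Among them foxa1.S read 8.99 and 8.90 in Sox17beta caps, 7.93 and 8.46 in Mixer caps, and 6.62 and 6.42 in uninjected caps. The probe set of sox17a.L read 6.67 and 7.92 in Mixer caps against 4.28 and 4.29 in Sox17beta caps. Of 14 neural probe sets, 1 rose in Mixer caps and 4 rose and 2 fell in Sox17beta caps with the block, and 0 passed without it (3 and 7 at an unadjusted p under 0.05). Of 11 mesoderm probe sets, 1 rose in Mixer caps and 2 in Sox17beta caps with the block, and 0 passed without it (1 and 2 at an unadjusted p under 0.05). For all probe sets the unadjusted shares without the block were 2.87% in Mixer caps and 6.26% in Sox17beta caps. The part of these shifts in the values of prdx2.L was not tested.

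Blood markers were examined because of the known abundance of prdx2 in mammalian red cells. Of 17 blood probe sets 0 passed in any comparison in limma, with or without the block. At most 2 had an unadjusted p under 0.05, in Sox17beta against uninjected caps with the block, where 18.2% of all probe sets did. The summed signal of the 17 was 10.5 to 10.6 in Mixer caps, 10.3 to 10.8 in Sox17beta caps and 10.5 to 10.6 in uninjected caps. The globin probe sets hba1.S, hba3.L, hbd.S and hbg1.L, and those of slc4a1.L and tal1.S, did not exceed the highest absent control on any array. Of these hbd.S, at 5.64 to 6.13, came close to it. By contrast, spib.S and 2 probe sets of epb41.L lay above the highest absent control on 6 of 6 arrays and one of gata1.L on 5 of 6.

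The probe sets whose 6 values ran most like those of prdx2.L were found by Pearson correlation among 1304 named probe sets with an SD of at least 0.5 over the arrays. They were e2f1.L (0.99), a transcription factor of cell cycle entry, rnf103.L (0.986), a ubiquitin ligase of the endoplasmic reticulum, LOC398162 (0.985), txnl4b.S (0.982), a thioredoxin-like protein of pre-mRNA splicing, and mylip.S (0.973), a ubiquitin ligase that in mammals acts on the LDL receptor. In all, 13 of the 1304 had a correlation over 0.95. The 6 points share the arrays and the replicate numbers, and the correlations are a description. The order of the 6 arrays was identical to that of prdx2.L in e2f1.L, rnf103.L and LOC398162. These probe sets were selected for their likeness to prdx2.L, so their order and their differences between groups are a description too.

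The probe set of LOC398162 read 10.10 and 9.64 in Mixer caps, 11.53 and 11.47 in Sox17beta caps, and 8.75 and 7.15 in uninjected caps. Its differences of 1.92 for Mixer and 3.55 for Sox17beta were larger than those of prdx2.L. The other 4 spanned smaller ranges, with Mixer differences of 0.51 (mylip.S) to 0.63 (e2f1.L) and Sox17beta differences of 1.08 (mylip.S) to 1.36 (txnl4b.S). None of the 5 could be a peroxiredoxin, since no other peroxiredoxin probe set reached the SD of 0.5 asked of candidates. Within the family, the highest correlation with prdx2.L was that of prdx6.L, at 0.476, a probe set not above background, and the lowest was that of prdx1.S, at -0.749.

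**Figure D4:**
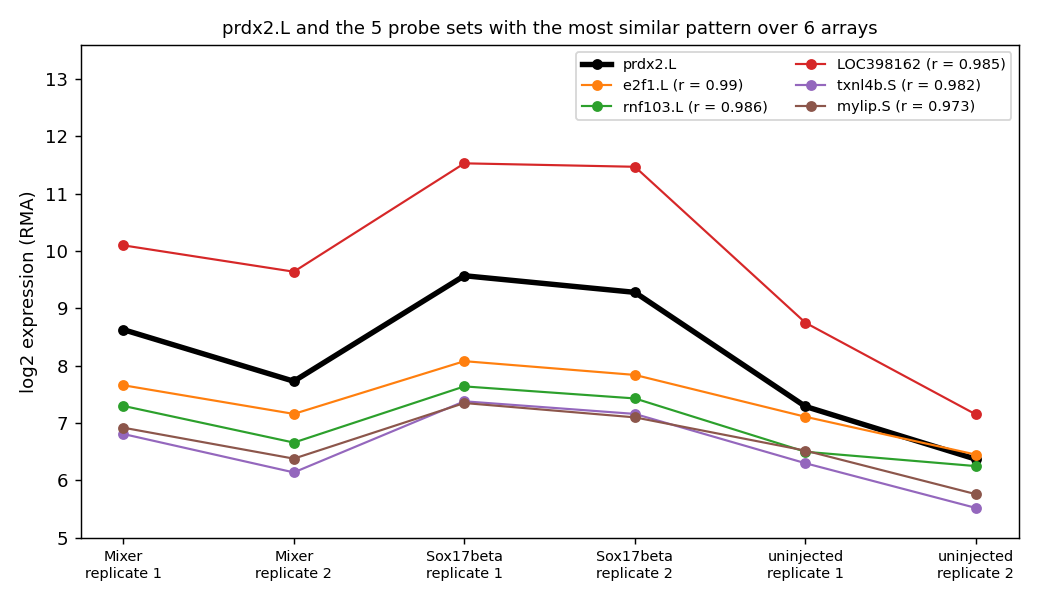
Log2 expression (vertical axis) of prdx2.L and of the 5 named probe sets with the most similar pattern on the 6 arrays (horizontal axis, by group and replicate), with Pearson r over the 6 arrays in the legend. Every line has its highest point on Sox17beta replicate 1 and its lowest on uninjected replicate 2.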

How the data were processed

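The deposited table holds 1 log2 expression value for each probe set and array, made with RMA according to the submitters' processing notes. RMA removes background and equalises array distributions, which can shrink differences near background. No version is given in the sources used here. The log2 scale was inferred from the deposited values (2.24 to 14.07), which were used unchanged. Of 15611 probe sets 120 controls were left out. Symbols came from the platform annotation, and 2 were updated to those a reference annotation gives for the same gene. Of the tested probe sets, 9304 had 1 symbol, 195 several and 5992 none. No coordinates are given, since no build is named. Precision is limited by having 2 arrays per group, and 0 columns of another series were used.

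All 6 arrays entered 1 limma fit (limma 3.58.1, R 4.3.3) that estimated 1 mean per group, without a block. Tests were two-sided, with Benjamini-Hochberg adjustment over all 15491 probe sets and a threshold of 0.05. Deviations of arrays with the same replicate number in the labels correlated at 0.776 (Mixer and Sox17beta), 0.867 (Mixer and uninjected) and 0.732 (Sox17beta and uninjected), so the numbers were taken as pairs, and the fit with the replicate block is given where it changes a call.

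The members and lists were chosen with earlier results of these data known. Named were every peroxiredoxin probe set, up to 3 called probe sets per redox list (or the 1 with the smallest p), and the 5 probe sets most like prdx2.L. Added after their values were seen were txn.L, txn2.L, sesn1.L, nfe2l2.L, p4hb.S, sod2.S, cybb.L and the second probe sets of p4hb.L and cat.2.L. List members were matched by symbol without copy endings. Figures used matplotlib 3.10.9 (Python 3.11.15).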

Additional observations from a re-analysis of the deposited data

Results flagged for a closer look

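The mean level of prdx2.L was lower in Mixer than in Sox17beta caps, with a Mixer minus Sox17beta difference of -1.245 on the log2 scale. That difference passed in limma with the replicate block (adjusted p = 0.0219) and not without it (adjusted p = 1). Leaving out single arrays from the blocked fit ended the call in most cases, and calls over all probe sets became fewer in every case. Both Mixer arrays, at 8.63 and 7.73, lay below both Sox17beta arrays, at 9.57 and 9.28. Groups did not overlap in this comparison, in either direction, for 24.5% of all probe sets.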

How the results depend on the processing

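The differences of prdx2.L kept their direction under every alternative run. Leaving out single arrays, they ran from 0.89 to 1.81 (Mixer) and from 2.135 to 3.055 (Sox17beta) against uninjected caps without the block. Without the block, leaving out an array could not reverse a sign, since the groups did not overlap. The values against uninjected caps also chose prdx2.L, so they give no separate support. For Mixer against Sox17beta the differences ran from -1.695 to -0.795 without and from -1.555 to -0.935 with the block. That call was made only with the replicate block (-1.245, adjusted p = 0.0219), including with quantile normalization (-1.284, 0.00697) or probe sets above the 25th percentile (-1.245, 0.0251), both chosen after seeing the data. Peroxiredoxin counts for Mixer against Sox17beta were 0 without and 1 with the block, and 0 to 1 leaving out single arrays from the blocked fit. For Sox17beta against uninjected the count changed only through prdx1.S in the blocked fit without Sox17beta replicate 1, which left 1 array in that group. Of the planned refits of the 9 other probe sets, 452 stayed on their side of the threshold and 1 did not. Most of these refits called few probe sets of the whole series, so an uncalled probe set would mostly stay uncalled.

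Counts over all probe sets moved more. For Mixer against uninjected caps, Sox17beta against uninjected caps and Mixer against Sox17beta they were 6, 3 and 9. They were 203, 844 and 241 with the replicate block, 281, 926 and 322 with the block and quantile normalization, and 178, 749 and 197 with the block above the 25th percentile. With 2 groups only they were 1, 0 and 1, which has fewer residual degrees of freedom. With the trend Sox17beta gave 13 and Mixer against Sox17beta 14, and quantile normalization alone gave 5 for Sox17beta. Leaving out single arrays gave 0 to 1, 0 to 5 and 1 in every case without the block, and 0 to 2, 0 to 582 and 0 to 136 with it. The cause of these changes in the counts was not tested.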
